A study of Mus musculus with 8 samples.

Results

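The proteasome genes described here were the rows of the deposited count table whose symbol starts with Psma, Psmb, Psmc or Psmd and a digit, without the immunoproteasome genes Psmb8, Psmb9 and Psmb10. The rule took 35 of the 13265 genes in the table, and all 35 were among the 12661 genes with at least 30 counts that were tested. Of these 35, 31 encode subunits of the proteasome and 3 (Psmd5, Psmd9 and Psmd10) encode chaperones that assemble its base. The remaining one, Psmc3ip, bears a similar symbol but encodes a protein of meiotic recombination, and it is described apart. Values and counts below are over the other 34 genes unless stated.

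The proteasome degrades proteins that carry ubiquitin chains. Its core particle is a barrel of stacked rings, with alpha subunits (Psma) on the outside and beta subunits (Psmb) inside, where Psmb5, Psmb6 and Psmb7 hold the active sites. A cap binds the barrel at its ends: the base of the cap carries a ring of ATPases (Psmc) that unfold the substrate, and the lid holds the subunit Psmd14, which removes the ubiquitin chain. Interferon induces Psmb8, Psmb9 and Psmb10, which take the place of the active subunits, and this changes the peptides made for MHC class I. The study examined the breakdown of the checkpoint ligand PD-L1 by this pathway in senescent human lung fibroblasts in culture. Chronic LPS inhalation was its mouse model of chronic lung inflammation. Protein levels and proteasome activity were not measured in these libraries.

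Epithelial cells (EpCam+ CD31- CD45- Ter119-) were sorted from the lungs of C57BL6 mice. The names of all count columns used also carry wt, read here as wild type. The mice had inhaled an aerosol of PBS (5 mice) or of PBS with 0.5 mg/ml LPS from Escherichia coli (3 mice). Sessions lasted 30 min and were held 3 times a week over 10 weeks. The labels call the samples biological replicates, and each is taken here as 1 mouse. All mice were female, and the study used young or old mice without saying which of these ages the libraries came from. The interval between the final aerosol and dissection was 48 h. Each sample of 10000 cells was read by a bulk form of MARS-seq, in which a unique molecular identifier (UMI) lets each captured 3′ end be counted a single time.

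The 5 PBS libraries held 2232727 to 2890560 counts and the 3 LPS libraries 2739340 to 4445431. In CPM, the count scaled to library size, 3 counts corresponded to 0.675 to 1.34. The CPM values given for genes are scaled by TMM. The 10 markers of alveolar type II cells took 13.2% to 16.5% of the counts in PBS libraries and 10.9% to 11.6% in LPS libraries. The 6 club cell markers (none called) took 4.94% of the counts in PBS library s16 and 0.952% to 1.54% in the other PBS libraries. In LPS libraries they took 1.53% to 3.47%. The 10 ciliated cell markers all had a positive log2 fold change (median 0.85, none called), and took 0.118% to 0.398% of the counts in PBS libraries and 0.496% to 0.576% in LPS libraries, without overlap. Epcam was at 107 to 148 CPM in all 8 libraries. The genes of the surface markers CD31 and CD45, which were sorted against, were also counted. Pecam1 (CD31) was as high as Epcam, at 72.8 to 172 CPM in PBS libraries and 78.3 to 167 CPM in LPS libraries. Ptprc (CD45) was at 7.68 to 35.5 CPM in PBS libraries and 23.1 to 37.2 CPM in LPS libraries (log2 fold change 0.72, SE 0.38, adjusted p = 0.34 from edgeR). Among PBS libraries both were highest in s2 and lowest in s16. Among 26 macrophage markers, LPS mice had 14 called higher, and 25 had a positive log2 fold change. The marker Lyz2, which type II cells also express, held most of this list. The other 25 macrophage markers summed to 0.0494% to 0.0815% of the counts in PBS libraries and 0.134% to 0.273% in LPS libraries. The part of these cell types in the values of the proteasome genes was not tested. The listed erythroid markers were not among the rows of the table. The 5 PBS libraries were not alike, as s1 and s2 resembled each other more than any other pair (chi-square per degree of freedom 2.76, against 6.74 to 20.7 for the other pairs of PBS libraries).

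Every proteasome gene was detected in every library. Mean levels in PBS mice ran from 5.46 CPM for Psmd9 to 507 CPM for Psmb4, with a median of 97.0 CPM, against 20.2 CPM over all tested genes. Each UMI stands for 1 captured 3′ end, so that these levels were not divided by transcript length, but the share of 3′ ends that is captured and mapped differs between genes. In the alpha ring, Psma7 was highest at 304 ± 39.1 CPM with PBS (SD, n = 5) and 258 ± 16.7 CPM with LPS (SD, n = 3). Psma3 had the lowest PBS mean, at 24.1 ± 3.46 CPM (SD, n = 5), and was at 19.3 ± 1.42 CPM with LPS (SD, n = 3). Psma4 was close to it with PBS, at 25.0 ± 18.6 CPM (SD, n = 5), and was lowest with LPS, at 14.2 ± 3.45 CPM (SD, n = 3). Among the beta subunits the structural gene Psmb4 was highest, and the active-site gene Psmb5 was lowest at 46.1 ± 10.0 CPM with PBS (SD, n = 5) and 50.4 ± 22.7 CPM with LPS (SD, n = 3). The 6 ATPases of the base lay closer together, from 45.4 CPM for Psmc6 to 180.3 CPM for Psmc3 in PBS mice. The lid ran from 33.2 CPM for Psmd11 to 251 CPM for Psmd8. The chaperones of the base were low, with Psmd5 at 36.9 CPM, Psmd10 at 32.5 CPM and Psmd9 at 5.46 CPM. Together the 34 genes took 0.407% to 0.455% of all counts in PBS libraries and 0.394% to 0.415% in LPS libraries. These shares overlapped.

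**Figure D1:**
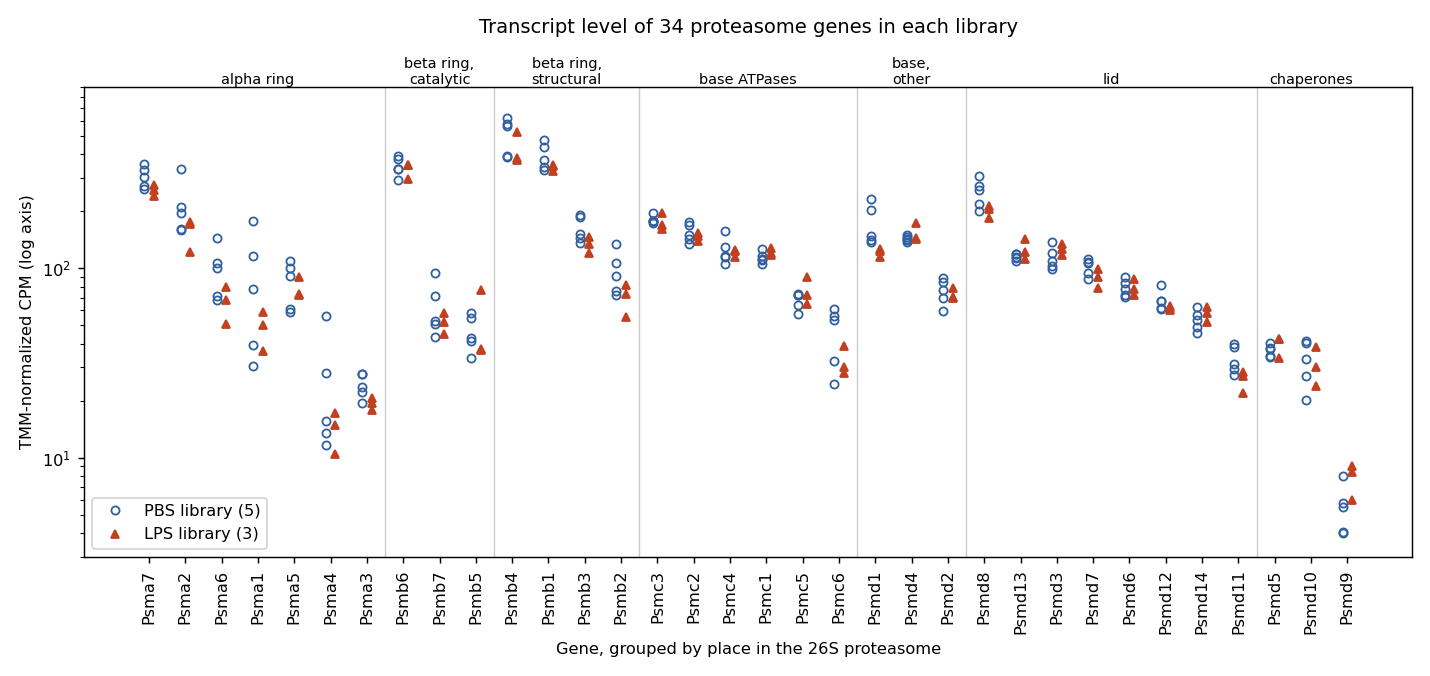
TMM-normalized CPM (log axis) of 34 proteasome genes in each of 5 PBS libraries (open circles) and 3 LPS libraries (triangles), by place in the particle and by falling PBS mean. The groups overlap in all genes but Psmd1, and Psma1 and Psma4 spread widest among PBS libraries.

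The PBS mice differed among themselves more in the core than in the cap. The highest PBS library exceeded the lowest by a median of 1.79-fold over the 14 core genes (range 1.33 to 5.80) and of 1.34-fold over the 17 cap genes (range 1.09 to 2.48). Over all tested genes, many of them at lower counts, the median was also 1.79-fold. In 13 of the 14 core genes the coefficient of variation among PBS mice was more than 2 times that of counting alone. So it was in 7 of the 17 cap genes and in 4217 of the 12661 tested genes. Among tested genes at or above the lowest mean of a proteasome gene (5.46 CPM, Psmd9), it was so in 3985 of 9840. These genes were not matched in level, with a median of 30.7 CPM against 97.0 in the core and 114 in the cap. Their median counting error was larger, at 11.2% against 6.36% in the core and 5.83% in the cap. Psma1, an alpha subunit chosen after its values were seen for having the widest range, was at 30.6, 39.3, 77.3, 115 and 177 CPM in PBS libraries s1, s2, s6, s11 and s16. Its levels in s11 and s16 stood far above those in s1 and s2. The LPS libraries, at 58.4, 36.4 and 50.3 CPM in s4, s14 and s18, all lay below s6, s11 and s16 and above s1. Psma4, also an alpha subunit and likewise chosen, was at 13.6, 11.6, 15.5, 28.0 and 56.2 CPM in PBS libraries s1, s2, s6, s11 and s16 and at 17.3, 10.5 and 14.9 CPM in LPS libraries s4, s14 and s18. Again s16 was far above the other libraries. Psmd13 of the lid, chosen for the narrowest range, was at 119, 119, 114, 109 and 113 CPM in PBS libraries s1, s2, s6, s11 and s16. Its 5 PBS values lay within 1.09-fold of each other. Psmd4, a ubiquitin receptor of the base, was nearly as even, at 137 to 149.9 CPM in PBS libraries.

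Among the PBS libraries, most core genes were highest in the same 2. PBS libraries s11 and s16 were the 2 highest of the 5 PBS libraries in 20 of 34 proteasome genes, which was the case in 17.9% of all tested genes. They were the 2 highest in 13 of 14 core genes, all 7 alpha subunits among them, and in 6 of 17 cap genes. The exception in the core was Psmb4, which was highest in s11 and next highest in s6. Libraries s1 and s2 were the 2 highest in no core gene and in 4 of 8 lid genes, namely Psmd3, Psmd12, Psmd13 and Psmd14, against 19% of all tested genes. Summed over its 14 genes, the core was at 2011, 1933, 2404, 2783 and 3099 CPM in PBS libraries s1, s2, s6, s11 and s16 and at 1989, 2093 and 2051 CPM in LPS libraries s4, s14 and s18. The 17 cap genes summed to 1796, 1786, 1859, 1986 and 2029 CPM and to 1770.0, 1820.5 and 1767 CPM in the same order. The ratio of core to cap was thus 1.12, 1.08, 1.29, 1.40 and 1.53 in the PBS libraries. It was 1.12, 1.15 and 1.16 in the LPS libraries, so that the LPS libraries lay just above s1 and s2 and below the other 3 PBS libraries.

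**Figure D2:**
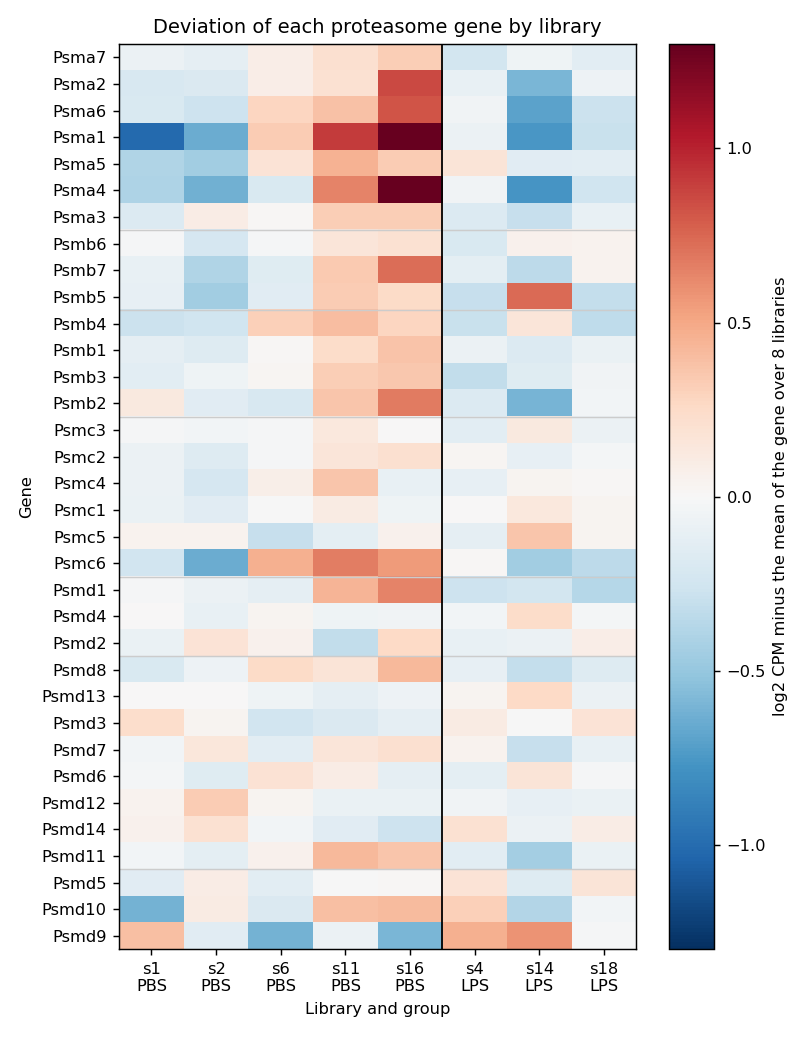
Deviation of log2 CPM from the mean of each gene over 8 libraries (colour, red higher and blue lower), with genes in rows by place in the particle and libraries in columns. Most alpha and beta genes at the top are red in PBS libraries s11 and s16, while most lid genes stay near the middle of the scale.

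As a group, short transcripts followed the same order of libraries. Transcripts of the core genes had a median length of 1162.5 bases (766 to 2911), those of the cap genes 1636 bases (1316 to 3112), and those of all tested genes 2883.5 bases, from GENCODE on GRCm38. Among genes with a mean of at least 5 CPM, 652 had transcripts under 1000 bases and 4480 had transcripts of 3000 bases or more. The median deviation of the short ones minus that of the long ones, on the log2 scale, was -0.24, -0.27, 0.072, 0.27 and 0.32 in PBS libraries s1, s2, s6, s11 and s16. In LPS libraries s4, s14 and s18 it was -0.097, -0.053 and 0.0027. The share of counts from Sftpc, the surfactant gene, moved with it in PBS mice, at 8.42%, 8.59%, 10.1%, 10.9% and 10.9%, but was lower in LPS mice (6.84% to 7.70%). The part of transcript length, library quality or cell makeup in the core levels was not tested. In bulk counts, fewer cells of a type and less RNA per cell cannot be told apart.

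**Figure D3:**
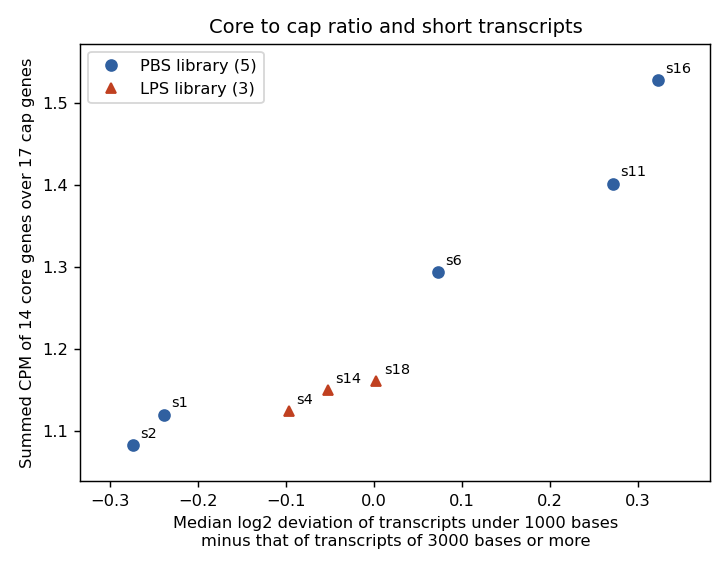
Ratio of the summed CPM of 14 core genes to that of 17 cap genes (vertical) against the median log2 deviation of transcripts under 1000 bases minus that of transcripts of 3000 bases or more (horizontal), 1 point per library. PBS library s16 is highest on both axes (1.53 and 0.32), s2 is lowest on both (1.08 and -0.27), and the 3 LPS libraries lie between.

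Promoters were taken from RefSeq on GRCm38.p6, from 250 bases before to 50 after the transcription start, and 28 of the 34 genes matched (not Psmb1, Psmb2, Psmb7, Psmc3, Psmd3 and Psmd7). Shown are those of Psma1 and Psma4, the members that varied most among PBS libraries, and of Psmd13, which varied least. Capitals mark matches, on either strand, to CCAAT (bound by NF-Y), GGGCGG (a GC box), the NRF-1 motif, CCGGAAG (an ETS core) and TGACNNNGC, the core of the antioxidant response element through which NFE2L1 raises proteasome genes. The 3 windows lie at chr7:114276067-114276366 (minus strand), chr9:54950609-54950908 (plus strand) and chr7:140882144-140882443 (plus strand).
Psma1: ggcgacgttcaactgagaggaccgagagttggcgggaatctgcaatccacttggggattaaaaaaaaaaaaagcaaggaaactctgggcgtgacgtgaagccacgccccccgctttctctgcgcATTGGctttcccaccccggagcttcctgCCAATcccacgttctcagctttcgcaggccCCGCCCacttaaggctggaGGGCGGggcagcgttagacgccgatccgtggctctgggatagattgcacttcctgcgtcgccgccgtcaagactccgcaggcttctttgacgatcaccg
Psma4: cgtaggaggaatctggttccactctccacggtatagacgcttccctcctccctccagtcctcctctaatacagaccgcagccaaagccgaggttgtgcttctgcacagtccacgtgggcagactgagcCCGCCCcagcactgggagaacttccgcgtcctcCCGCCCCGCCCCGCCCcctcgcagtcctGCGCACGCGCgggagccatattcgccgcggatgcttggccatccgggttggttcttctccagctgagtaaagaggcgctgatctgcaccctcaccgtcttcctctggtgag
Psmd13: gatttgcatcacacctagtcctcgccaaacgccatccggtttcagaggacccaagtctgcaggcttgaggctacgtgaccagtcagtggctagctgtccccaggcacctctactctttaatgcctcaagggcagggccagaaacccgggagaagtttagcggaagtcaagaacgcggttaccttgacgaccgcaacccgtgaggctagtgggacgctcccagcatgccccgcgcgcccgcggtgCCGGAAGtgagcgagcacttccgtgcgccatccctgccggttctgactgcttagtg
Psma1 held 2 CCAAT boxes and 2 GC boxes, Psma4 held 4 GC boxes, of which 3 overlap end to end, and 1 NRF-1 motif, and Psmd13 held 1 CCGGAAG near its start. The letters CCGGAAG occurred in 1 of 11 matched core promoters (Psma6) and in 9 of 14 cap promoters, against 19.3% of the promoters of tested genes and 9.93% of all promoters. The response element core occurred in 5 of 28 members (Psmb5, Psmb6, Psmc6, Psmd9 and Psmd12), or 17.9%, close to the 16.9% of tested genes. CCAAT was in 39.3% of the members and 42.2% of tested genes, GGGCGG in 64.3% and 67.6%, and the NRF-1 motif in 21.4% and 11%. Over all promoters these 3 motifs were in 41.1%, 38.2% and 5.19%, and the response element core was in 14%. These are matches of letters, not bound sites.

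No proteasome gene was called in LPS against PBS mice. At an adjusted p under 0.05 and the fold threshold of the study, edgeR's quasi-likelihood test called 0 of 34 higher and 0 lower, where it called 1.46% of all tested genes higher and 0.569% lower. At an unadjusted p under 0.05, 2 were lower (Psmd1 and Psma6) and 0 higher, against 7.64% and 10.4% of all tested genes. DESeq2 called 0 as well, where it called 2.91% of all tested genes higher and 1.51% lower, with 2 lower and 0 higher at an unadjusted p under 0.05. Limma-voom called 0 too, against 1.38% of all tested genes higher and 0.521% lower, with 1 lower and 0 higher at an unadjusted p under 0.05. The groups did not overlap in 1 gene lower in LPS mice (Psmd1) and in 0 higher, against 5.86% and 8.52% of all tested genes. The log2 fold change was negative in 24 of 34 genes (52.7% of all tested genes) and 17 of 34 when libraries were scaled to their totals only. Its median was -0.12, against -0.02 over all tested genes, and -0.03 against 0.06 with totals only, under which 0 members were called where 1.34% of all tested genes were higher and 0.332% lower. In the core 13 of 14 genes had a negative value (median -0.27), and in the cap 10 of 17 (median -0.04). The 95% interval lay within 1 log2 unit of 0 for 29 genes. Those of Psma1, Psma4, Psma6 and Psmc6 reached lower and that of Psmd9 reached higher.

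**Figure D4:**
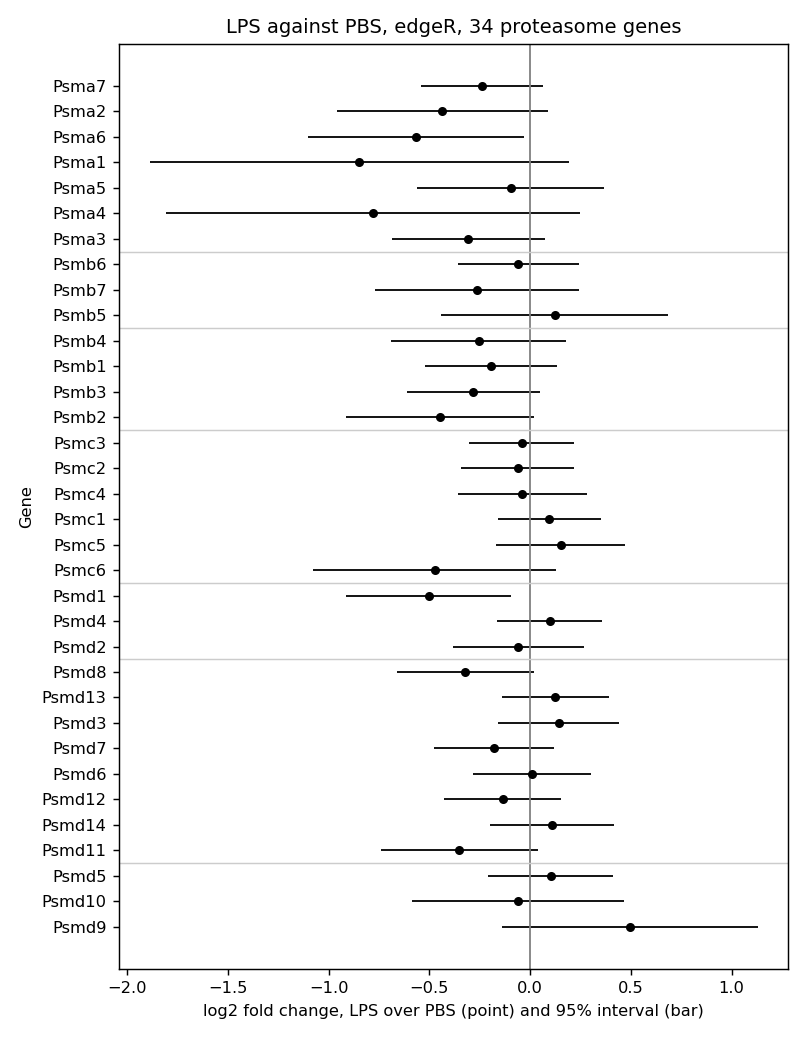
Log2 fold change of LPS over PBS (points) with its 95% interval (bars) for 34 proteasome genes, from edgeR. The points of the alpha ring all lie left of 0, the intervals of Psma1 and Psma4 are widest, and no gene was called.

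These values depended on which PBS mice were compared. Without PBS libraries s1 and s2, the most alike pair, 3 genes were called lower (Psma1, Psma6 and Psmc6, log2 fold changes -1.34, -0.82 and -0.80, adjusted p = 0.028, 0.042 and 0.026 from edgeR) where 3.12% of the 12222 genes then tested were lower. None was called higher, against 4.31% of those genes. In each of the 3 genes s1 and s2 were the 2 lowest PBS libraries, so that leaving them out raises the PBS mean by construction. Without s6, s11 and s16 none was called, against 1.03% of genes higher and 0.387% lower. The smallest adjusted p was 0.23 from edgeR, with 2 higher and 0 lower at an unadjusted p under 0.05. Of 34 values 14 were negative, the median was 0.075, and Psma1 turned to 0.49. In Psma1 s6, s11 and s16 were the 3 highest PBS libraries. In 20 of 34 genes (17.9% of all tested genes) s11 and s16 were the 2 highest. Leaving them out lowers the PBS mean of such genes by construction.

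In the sentences that follow, PBS values are in the order s1, s2, s6, s11 and s16 and LPS values in the order s4, s14 and s18. In the alpha ring, whose subunits gate the barrel, Psma6 had the smallest p. Psma6 was at 71.7, 68.1, 99.7, 107 and 145 CPM in the PBS libraries and 79.5, 50.7 and 67.8 CPM in the LPS libraries. LPS libraries s14 and s18 were below all PBS libraries, but s4 lay above s1 and s2. The difference did not pass (log2 fold change -0.56, SE 0.25, 95% interval -1.10 to -0.03, adjusted p = 0.25). Psma2 was at 159, 161, 195, 211 and 333 CPM in the PBS libraries and 172, 122 and 176 CPM in the LPS libraries. The values of s4 and s18 lay within the PBS range. It had a log2 fold change of -0.43 (SE 0.24, 95% interval -0.96 to 0.09, adjusted p = 0.37). Psma1 had a log2 fold change of -0.85 (SE 0.48, 95% interval -1.89 to 0.19, adjusted p = 0.38), and Psma4 a log2 fold change of -0.78 (SE 0.47, 95% interval -1.81 to 0.25, adjusted p = 0.41). These are the widest intervals of all members. Psma3, Psma5 and Psma7 had log2 fold changes of -0.31, -0.10 and -0.24 (adjusted p = 0.38, 0.86 and 0.39).

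The active-site genes showed no called difference. Psmb5 was at 42.8, 33.5, 41.5, 57.9 and 54.6 CPM in the PBS libraries and 37.5, 76.6 and 37.1 CPM in the LPS libraries. It encodes the subunit with chymotrypsin-like activity, the target of bortezomib, and 1 LPS library, s14, was above all others while s4 and s18 were above s2 and below the other 4 PBS libraries. Its log2 fold change of 0.12 (SE 0.26, 95% interval -0.44 to 0.69, adjusted p = 0.85) turned to -0.30 without s14. Pseudogenes are annotated for all 3 active-site genes, and only reads that map uniquely were counted. Psmb6 was at 335, 291, 335, 378 and 389 CPM in the PBS libraries and 295, 351 and 349 CPM in the LPS libraries. This subunit, with caspase-like activity, had the most even level of the 3, with a log2 fold change of -0.06 (SE 0.14, 95% interval -0.36 to 0.24, adjusted p = 0.87). Psmb7 was at 52.9, 43.2, 50.6, 71.4 and 93.8 CPM in the PBS libraries and 51.9, 44.8 and 58.3 CPM in the LPS libraries. It cuts after basic residues, s16 was highest, and its difference did not pass (log2 fold change -0.26, SE 0.23, 95% interval -0.77 to 0.24, adjusted p = 0.59). Among the structural beta genes Psmb2 came nearest to the threshold. Psmb2 was at 90.8, 75.5, 72.2, 107 and 133 CPM in the PBS libraries and 73.5, 54.9 and 81.2 CPM in the LPS libraries. LPS library s14 was below all others, and s4 and s18 lay within the PBS values (log2 fold change -0.45, SE 0.21, 95% interval -0.91 to 0.02, adjusted p = 0.29). Psmb3 was at 136, 144, 152, 187 and 191 CPM in the PBS libraries and 119.9, 134 and 145 CPM in the LPS libraries. LPS libraries s4 and s14 were below all PBS libraries, and s18 lay between s2 and s6 (log2 fold change -0.28, SE 0.15, 95% interval -0.61 to 0.05, adjusted p = 0.35). Psmb4 was at 386, 389.9, 578, 618 and 565 CPM in the PBS libraries and 383, 521 and 372 CPM in the LPS libraries. LPS libraries s4 and s18 were just below s1 and s2, and s14 was well above these (log2 fold change -0.25, SE 0.20, 95% interval -0.69 to 0.18, adjusted p = 0.54). Psmb1 had a log2 fold change of -0.19 (SE 0.15, adjusted p = 0.54).

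Psmd1, a scaffold of the base that receives ubiquitin receptors, was the 1 proteasome gene whose groups did not overlap. Psmd1 was at 147, 142, 138, 202 and 233 CPM in the PBS libraries and 123, 126 and 115 CPM in the LPS libraries. All 3 LPS values were below all 5 PBS values, and s6 was the nearest of these to s14. The difference did not pass (log2 fold change -0.50, SE 0.19, 95% interval -0.91 to -0.09, adjusted p = 0.18). Psmd1 lies on chromosome 1 of GRCm38 from 86064619 to 86139295. In GENCODE its exons overlap those of the predicted gene Gm21972 on the same strand, so that its counts may be uncertain. The counts were made on RefSeq genes, and whether this overlap changed them was not tested. Psmd2, the other scaffold, had a log2 fold change of -0.06 (SE 0.15, adjusted p = 0.88), and Psmd4 one of 0.10 (SE 0.12, adjusted p = 0.73). Psmc6 was at 32.4, 24.5, 53.0, 60.8 and 56.2 CPM in the PBS libraries and 38.7, 28.0 and 30.2 CPM in the LPS libraries. This ATPase was higher in s6, s11 and s16 than in all other libraries, and s1 and s2 overlapped the LPS mice (log2 fold change -0.47, SE 0.28, 95% interval -1.08 to 0.13, adjusted p = 0.39). Psmc5 was at 72.4, 72.2, 57.0, 64.2 and 72.8 CPM in the PBS libraries and 64.4, 89.9 and 72.1 CPM in the LPS libraries. LPS library s14 was highest in this ATPase and the other LPS values lay within those of PBS mice (log2 fold change 0.15, SE 0.15, 95% interval -0.17 to 0.47, adjusted p = 0.64). The ATPases Psmc1, Psmc2, Psmc3 and Psmc4 had log2 fold changes of 0.10, -0.06, -0.04 and -0.04, and their 95% intervals together ran from -0.36 to 0.35.

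In the lid, Psmd8 had the smallest p. Psmd8 was at 199.7, 219, 271, 257 and 307 CPM in the PBS libraries and 213, 185 and 204 CPM in the LPS libraries. The LPS values lay around that of s1 and below those of the other 4 PBS libraries (log2 fold change -0.32, SE 0.16, 95% interval -0.66 to 0.02, adjusted p = 0.30). Psmd14, the deubiquitinase of the lid, was at 53.4 ± 6.68 CPM with PBS (SD, n = 5) and 57.6 ± 5.49 CPM with LPS (SD, n = 3), and its difference did not pass (log2 fold change 0.11, SE 0.14, 95% interval -0.20 to 0.42, adjusted p = 0.74). The other 6 lid genes had log2 fold changes from -0.35 in Psmd11 to 0.14 in Psmd3. Of the 3 chaperone genes 2 had a positive value. Psmd9 was at 8.0, 5.48, 3.99, 5.79 and 4.04 CPM in the PBS libraries and 8.41, 9.10 and 6.0 CPM in the LPS libraries. Its groups overlapped, and the level was low (log2 fold change 0.50, SE 0.29, 95% interval -0.14 to 1.13, adjusted p = 0.39). Psmd5 was at 34.1, 40.3, 34.3, 37.6 and 38.0 CPM in the PBS libraries and 42.5, 33.6 and 42.3 CPM in the LPS libraries. They differed by less than the spread within the groups (log2 fold change 0.10, SE 0.14, 95% interval -0.21 to 0.41, adjusted p = 0.76). Psmd10, which encodes gankyrin, had a log2 fold change of -0.06 (SE 0.24, adjusted p = 0.93). Psmc3ip, outside the proteasome, was at 27.9 ± 10.3 CPM with PBS (SD, n = 5) and 40.9 ± 5.82 CPM with LPS (SD, n = 3), and its difference did not pass (log2 fold change 0.55, SE 0.28, 95% interval -0.05 to 1.16, adjusted p = 0.32).

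The immunoproteasome genes were compared with the constitutive subunit that each replaces, as ratios of counts (each plus 1) within a library, which need no scaling. The share of 3′ ends captured and uniquely mapped differs between genes, and Psmb5, Psmb6 and Psmb7 have annotated pseudogenes. The level of a ratio thus compares counts only. The part of macrophages in the ratios was not tested. Psmb8 exceeded Psmb5 in every library, with ratios of 4.13, 5.69, 5.87, 3.74 and 3.63 in PBS libraries s1, s2, s6, s11 and s16 and 6.38, 3.40 and 6.54 in LPS libraries s4, s14 and s18. The groups overlapped (difference of mean log2 ratios 0.21, two-sided exact permutation test over 56 splits, p = 0.48, adjusted over the 3 pairs 0.72). Psmb10 exceeded Psmb7 in every library, at ratios of 2.12, 2.55, 2.76, 1.96 and 1.37 in the PBS libraries and 2.14, 3.18 and 1.69 in the LPS libraries (difference 0.11, exact permutation p = 0.73, adjusted 0.73). Psmb9 stayed below Psmb6, at ratios of 0.177, 0.231, 0.284, 0.185 and 0.174 in the PBS libraries and 0.335, 0.371 and 0.243 in the LPS libraries. LPS libraries s4 and s14 were above all PBS libraries and s18 was below s6. This difference of 0.60 did not pass (exact permutation p = 0.054, adjusted 0.16, where 5 mice against 3 allow no p below 0.018). Per gene, Psmb9 had a log2 fold change of 0.54 (SE 0.18, 95% interval 0.15 to 0.94, adjusted p = 0.14), Psmb8 one of 0.27 (SE 0.13, adjusted p = 0.31) and Psmb10 one of -0.10 (SE 0.15, adjusted p = 0.78), all from edgeR.

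**Figure D5:**
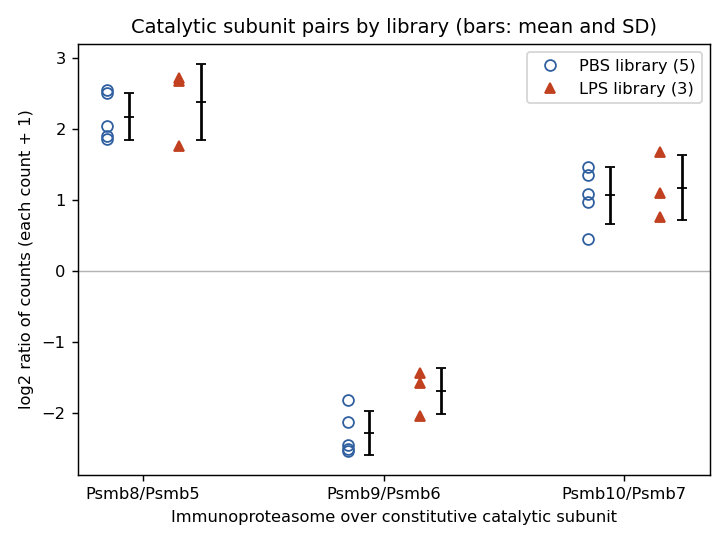
Log2 ratio of counts of each immunoproteasome gene to the constitutive gene it replaces, in 5 PBS libraries (open circles) and 3 LPS libraries (triangles), with the mean and SD beside them. Psmb8/Psmb5 and Psmb10/Psmb7 overlap widely, and in Psmb9/Psmb6 2 of 3 LPS libraries lie above all PBS libraries.

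Of 48 other tested genes of the pathway none was called by edgeR, against 1.46% of all tested genes higher and 0.569% lower. At an unadjusted p under 0.05, 1 was higher and 3 were lower, against 10.4% and 7.64% of all tested genes, and the median log2 fold change was -0.11. The thymus and testis forms of core subunits, Psmb11 and Psma8, were not among the rows of the table. The subunits of the cap with other symbols were Sem1, of the lid, at 311 ± 60.1 CPM with PBS (SD, n = 5) and 244 ± 33.1 CPM with LPS (SD, n = 3), and its difference did not pass (log2 fold change -0.35, SE 0.18, adjusted p = 0.32), and Adrm1, a ubiquitin receptor, with a log2 fold change of -0.16 (SE 0.21, adjusted p = 0.74). Of 5 regulators that bind the core, Psme2 of the interferon-inducible activator had a log2 fold change of -0.41 (SE 0.17, adjusted p = 0.23), while its partner Psme1 had one of -0.12 (SE 0.16, adjusted p = 0.74). Psme2 has a retrogene copy, Psme2b, and its counts are uncertain. Psme4, an activator, and Psmf1, an inhibitor of the core, had log2 fold changes of -0.48 (SE 0.24, adjusted p = 0.31) and 0.24 (SE 0.21, adjusted p = 0.59). All 5 chaperones that assemble the core had negative values (median -0.27) and none was called. Pomp, which matures the beta ring, was at 192, 192, 189, 273 and 382 CPM in the PBS libraries and 212, 187 and 195 CPM in the LPS libraries. As in the core, s11 and s16 were highest, and the log2 fold change was -0.31 (SE 0.23, adjusted p = 0.52). Psmg1 and Psmg2, which pair to build the alpha ring, had log2 fold changes of -0.29 and -0.27.

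Nfe2l1, the transcription factor that raises proteasome genes when the particle is inhibited, overlapped between the groups. Nfe2l1 was at 149, 136, 121, 131 and 126 CPM in the PBS libraries and 131, 145 and 126 CPM in the LPS libraries. Its log2 fold change was 0.01, with a 95% interval of -0.26 to 0.28 (adjusted p = 0.97 from edgeR). Ngly1, which removes glycans from this factor, had a log2 fold change of 0.41 (SE 0.19, adjusted p = 0.29), Nfe2l2 one of -0.32 (SE 0.18, adjusted p = 0.37) and Stat3 one of -0.32 (SE 0.14, adjusted p = 0.26). None of the 12 genes of this list was called. Txnl1, a thioredoxin that binds the cap, was the 1 gene of the other lists whose groups did not overlap (5.86% of all tested genes lower and 8.52% higher), at 15.9 to 18.7 CPM in PBS libraries and 11.3 to 13.2 CPM in LPS libraries (log2 fold change -0.45, SE 0.17, adjusted p = 0.20). The ligase Huwe1 and the deubiquitinase Usp14 had log2 fold changes of -0.20 (SE 0.14, adjusted p = 0.48) and -0.86 (SE 0.60, adjusted p = 0.48), the latter near the level of 3 counts. Among 11 shuttle factors and partners of VCP, Ubqln1, Ubqln4 and Vcp, the segregase itself, had values of 0.20, -0.22 and -0.14. Uba1, the main ubiquitin-activating enzyme, had a log2 fold change of -0.24 (SE 0.13, adjusted p = 0.35). Rps27a, which encodes ubiquitin fused to a ribosomal protein, had a value of -0.51 (SE 0.35, adjusted p = 0.48). Rps27a was at 249.8, 321, 665, 746 and 844 CPM in the PBS libraries and 436, 371 and 384 CPM in the LPS libraries. PBS libraries s6, s11 and s16 were above all LPS libraries, and s1 and s2 below all of them.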

How the data were processed

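Bulk MARS-seq libraries of sorted lung epithelium from 5 PBS and 3 LPS mice were analysed. The authors ran the UTAP pipeline, in which reads with a unique place at the 3′ end of a RefSeq gene (mm10) were kept and UMIs counted. No source used here names the aligner. The deposited table holds raw counts, used for every result. Left out were 16 further columns with values for single mice, and the authors' mean, fold changes and p-values from DESeq2, which the table also holds. Column names give EpCam, wt, the group and a library number (s1, s2 and so on), and no label carries that number. Within each group, no pair of libraries was alike enough to be 1 library deposited in duplicate. Pairs of a PBS and an LPS library were not compared in this way.

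Genes with at least 30 counts over the 8 libraries, the minimum of the study, were scaled by TMM. LPS was tested against PBS in R 4.3.3 with the quasi-likelihood test of edgeR 4.0.16. P-values were adjusted by Benjamini and Hochberg over all 12661 genes, and genes were called at adjusted p under 0.05 and a fold over 1.25. Adjusted p-values of genes are from this test unless another is named. Standard errors (SE) are the log2 fold change over the root of F. Labels do not say that mice shared a batch or litter. Alternatives were DESeq2 1.42.0, limma-voom (3.58.1), other scalings and filters, and libraries left out. The fits were first tested on simulated data. Members and lists were chosen with earlier results of these data known. Named are the active-site genes, the 2 members of smallest p in each part of the particle, the highest and lowest member, called members, and up to 3 genes of smallest p per pathway list with Psmb8, Psmb9, Psmb10, Psme1, Psme2, Pomp and Nfe2l1. 1 gene that this rule names is not reported here. Core and cap sums, transcript lengths and genes named as chosen after their values were added after seeing the data. The level of 3 counts covers counting error only.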

Additional observations from a re-analysis of the deposited data

Results flagged for a closer look

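In 3 of 66 sets of 5 PBS values 1 library stood far from the other 4, by a gap over 0.71 of the range, where chance gives about 1 in 20. Psmc3, an ATPase of the base, was at 196 CPM in s11, and the other PBS libraries lay between 174 and 178 CPM. Vcp was at 304 CPM in s11 as well, against 256 to 263 CPM in the others. Adrm1 was at 44.2 CPM in s2, against 23.5 to 28.9 CPM in the others.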

How the results depend on the processing

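No proteasome gene was called under DESeq2, limma-voom, the other scalings and filters, no fold threshold, or with any 1 library left out (0 higher and 0 lower). The exception was the fit without PBS libraries s1 and s2, with 3 lower, where Psme2 (-0.60), Psme4 (-0.74) and Rps27a (-0.92) were called lower too. Over all tested genes 185 were higher and 72 lower, but 369 and 191 with DESeq2, 170 and 42 with library totals, 47 to 259 and 12 to 95 with 1 library left out, 527 and 381 without s1 and s2, and 125 and 47 without s6, s11 and s16. The median over proteasome genes was -0.19 to -0.068 with 1 library left out.

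Sign changes were followed only in genes named by the rule given above or chosen after their values were seen. Over all 34 proteasome genes, 24 values were negative with all libraries and TMM, and 17 with library totals. Without s6, s11 and s16 14 were negative, and without s1 and s2 26. Among the genes followed, log2 fold changes changed sign without s6, s11 and s16 in Psmb6 (0.095), Psmb7 (0.12), Psmc6 (0.20), Psmb4 (0.14), Psma1 (0.49), Psma4 (0.21), Psmb10 (0.084), Psme4 (0.0011), Psmg2 (0.044), Pomp (0.058), Rps27a (0.49), Psme1 (0.14) and Nfe2l1 (-0.082). They did so without s1 and s2 in Psmb5 (-0.039) and Adrm1 (0.067), and with library totals in Psmb6 (0.033). With 1 library left out, Psmb5 ranged from -0.30 to 0.30, Psmb6 from -0.11 to 0.020, Psmd4 from -0.00019 to 0.15, Adrm1 from -0.24 to 0.023, Psmb10 from -0.26 to 0.00050 and Nfe2l1 from -0.045 to 0.059. In Psma1, Psmb4, Psmc6 and Rps27a, among others, s6, s11 and s16 were above s1 and s2. Leaving them out thus lowers the PBS mean of these genes by construction. Why the libraries differed was not tested.

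For the ratios, the difference in Psmb9/Psmb6 was 0.47 to 0.77 with 1 library left out, at an unadjusted p under 0.05 without PBS library s6 (0.71, exact permutation p = 0.029, adjusted 0.086) or LPS library s18 (0.77, exact permutation p = 0.048, adjusted 0.14). Psmb10/Psmb7 ranged from -0.13 to 0.32 and was -0.040 without s6, s11 and s16, and Psmb8/Psmb5 ranged from 0.046 to 0.52. Without Sftpc in the denominator the members took 0.475% of counts in PBS mice and 0.437% in LPS mice, against 0.428% and 0.406%. No paired analysis was possible because the columns of the table carry none of the replicate numbers of the labels. Usp14 had too few counts to be tested without s6, s11 and s16. Changes much smaller than the intervals given were not detectable with 5 and 3 mice.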
